A study of Mus musculus with 2 samples.

Results

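The class II odorant receptor clusters of mouse chromosome 7 are a pair of neighbouring runs of receptor genes, one from Olfr693 to Olfr716 and one from Olfr467 to Olfr519. Members were all protein-coding genes named Olfr plus digits that lie in chr7:106675005-107150581 or in chr7:107812263-108894420 on GRCm38. The rule gave 65 members, 23 in the first cluster and 42 in the second, of 1093 such receptor genes and 21755 protein-coding genes in all. The rule uses symbol, gene type and position and no boundary value, but it was set with earlier results of these data known.

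The data came from in situ Hi-C, which reads how often pieces of the genome touch each other inside fixed nuclei. The material was 2 biological replicates of mature olfactory sensory neurons. They were taken from the olfactory epithelium of adult mice, mixed sex, strain 129P2/OlaHsd, with a MOR28-GFP allele. MOR28 is an older name of Olfr1507, a receptor gene of chromosome 14, and neurons expressing it were sorted by their GFP. One replicate had 170000 cells and the other 220000. Cells were crosslinked for 10 min in 1% formaldehyde, cut with DpnII for 960 min and ligated for 240 min, and no treatment is listed. There is thus 1 group, with no control, no second cell type and no other condition. The deposited values are 1 list of domain boundaries called on the pooled contacts of both replicates, so no value below has a replicate error and none was tested against one. The list holds no counts, and the depth behind a boundary is unknown. It also holds no expression values, so the sorted cell type could not be checked against its markers.

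Odorant receptors are G protein-coupled receptors on the cilia of olfactory neurons, and each gene is usually read from a short coding exon. Class I receptors resemble those of fish and sit in a single large cluster in the mouse, whereas class II receptors make up the bulk of the family and lie in many clusters built by tandem duplication. A mature olfactory neuron expresses a single receptor allele and keeps the other receptor genes silent in heterochromatin. Receptor clusters are known to meet each other in the nucleus of these neurons, and enhancers within clusters take part in receptor choice. The cells used here had chosen Olfr1507, so the members on chromosome 7 are not the receptor that the sort selected. A boundary is a place on the chromosome across which contacts are fewer than on either side. An interval here is the stretch between the midpoints of neighbouring boundaries.

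The class in the name was checked against the MOR names that RefSeq lists as synonyms, where a family number below 100 marks class I. All 65 members matched such a name, 63 of class II and 2 of class I. The exceptions are Olfr503 (MOR34-12) and Olfr504 (MOR40-15), which lie side by side in the second cluster. The coding sequence of Olfr503 was 97.1% identical to that of Olfr658 (MOR34-5) at chr7:104642877-104647305, and Olfr504 was 95.6% identical to Olfr657 (MOR40-13) at chr7:104624794-104637481. Both of these relatives lie in the large cluster from Olfr543 to Olfr692 on the same chromosome. Identity here is the length of the longer coding sequence less the edits of the shortest series between the pair, as a share of that length. Its value for unrelated sequences was not measured. Over the receptor genes that carry a MOR name, the median identity of Olfr503 was 59.3% to 123 class I genes and 53.4% to 948 class II genes. Olfr504 had medians of 54.8% and 53.1%. The other 63 members were all closer to class II, with medians of 55.2% to 58.7% against 51.7% to 54.1% for class I. The name therefore holds for 63 of the 65 genes, and the results below keep all 65.

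The sequences at the boundaries come first, because these few stretches are what the positions below refer to. Shown are the 250 bases upstream of the transcription start site (TSS) of the members whose TSS lies closest to a boundary, 5′ to 3′ on the strand of the gene, from the GRCm38 reference of another mouse strain. They lie at chr7:106901242-106901491 (minus strand) for Olfr707, chr7:108033990-108034239 (minus strand) for Olfr478 and chr7:107812013-107812262 (plus strand) for Olfr467. Capitals mark CCCNNGGG, the core of Ebf binding sites, and TAATTA, a homeodomain core. Both kinds of site are known from receptor gene promoters, and both motifs read the same on either strand.
Olfr707: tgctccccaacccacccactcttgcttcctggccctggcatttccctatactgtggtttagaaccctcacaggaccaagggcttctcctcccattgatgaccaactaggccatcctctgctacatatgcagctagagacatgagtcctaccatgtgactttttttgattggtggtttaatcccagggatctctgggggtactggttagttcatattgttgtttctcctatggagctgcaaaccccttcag
Olfr478: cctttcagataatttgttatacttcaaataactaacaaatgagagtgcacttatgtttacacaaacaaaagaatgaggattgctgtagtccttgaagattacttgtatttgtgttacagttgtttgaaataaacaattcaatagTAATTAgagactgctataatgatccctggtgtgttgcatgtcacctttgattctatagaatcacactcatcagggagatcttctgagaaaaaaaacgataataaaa
Olfr467: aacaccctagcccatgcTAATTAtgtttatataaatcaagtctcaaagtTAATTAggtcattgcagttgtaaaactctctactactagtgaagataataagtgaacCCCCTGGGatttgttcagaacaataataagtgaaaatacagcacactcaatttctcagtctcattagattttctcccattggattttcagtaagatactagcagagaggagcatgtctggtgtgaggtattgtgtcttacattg

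The upstream stretch of Olfr707 held neither motif, that of Olfr478 held 1 TAATTA, and that of Olfr467 held 2 TAATTA and 1 CCCNNGGG. Over windows from 250 bases before to 50 after the TSS, CCCNNGGG was found in 13 of 65 members (20%), in 154 of 1028 receptor genes elsewhere and in 15.9% of all 21755 protein-coding genes. TAATTA was found in 12 of 65 members (18.5%), in 24.9% of receptor genes elsewhere and in 5.22% of all protein-coding genes. Both motifs occurred together in 2 members, Olfr467 and Olfr481. The member windows were poor in G and C, with a median GC content of 36% against 37.7% in receptor genes elsewhere and 55% over all genes. These windows depend on the annotated start: in 43 members the RefSeq start lay over 1 kb from the GENCODE start used here. A TSS over 50 bases from the coding start was annotated in 52 members. Among these 52, CCCNNGGG and TAATTA were each found in 12 (23.1%). The receptor genes elsewhere were not split in this way.

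The protein-coding genes inside both clusters are all receptor genes. The first spans 476 kb and holds 4.84 members per 100 kb, 7 on the plus and 16 on the minus strand. The second spans 1082 kb and holds 3.88 members per 100 kb, with 21 on each strand. The median gap between neighbouring members was 10.8 kb in the first cluster (0.948 to 42.7 kb) and 18.8 kb in the second (3.26 to 68.3 kb). Another 15 receptor genes in these spans fell outside the rule because of their symbol or type, 12 of them annotated as pseudogenes. The coding sequences of the members run from 921 to 1026 bases. Both clusters are AT-rich and rich in repeats. GC content was 38.9% and 39.0% against 43.1% over chromosome 7, and the soft-masked share was 46.8% and 51.8% against 35.4%.

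The boundary list holds 7367 boundaries of 5000 bp with a deposited strength from 0.2 to 4.26, a score whose scale is not stated, and a class that changes from weak to strong at 0.5. Its median strength is 0.563. Chromosome 7 has 417 boundaries, 58% of them strong, or 2.93 per Mb. Only 3 boundaries lay inside the member clusters, 1 in the first and 2 in the second, and all 3 were weak. That is 1.93 per Mb over 1.56 Mb. At the density of chromosome 7, the same length would hold 4.56 boundaries, 2.65 of them strong. The share of positions with a 32-base word that is unique in the genome was 76.5% in the first cluster and 68.6% in the second, against 78.6% over chromosome 7 and 90.1% between the clusters. The part that this difference in unique sequence has in the boundary counts was not tested.

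The inner boundary of the first cluster lies at chr7:106900001-106905000 and has a strength of 0.296, above 21.2% of the list. It overlaps an exon of Olfr707 in the GENCODE model, whose TSS sits inside it, 1.26 kb from its midpoint. The RefSeq start and the coding start of Olfr707 each lie 9.13 kb from that TSS and so outside the interval. The next member to the right is Olfr710, 45.8 kb away, and both genes are on the minus strand. Olfr1532-ps1, a receptor gene that the rule leaves out, starts 5.50 kb from the same midpoint.

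The inner boundaries of the second cluster were weaker still. The one at chr7:108035001-108040000 has a strength of 0.243, above 11.2% of the list. It lies between Olfr478 on the minus strand, 3.51 kb to the left, and Olfr479 on the plus strand, 13.2 kb to the right, so the neighbouring genes point away from it. Of the words sampled within 10 kb of it, 56% were unique, the lowest share of the 8 boundaries at and around the clusters. The other lies at chr7:108510001-108515000 with a strength of 0.253, above 13.5% of the list. There Olfr498 (plus strand) starts 47.2 kb to the left and Olfr502 (minus strand) 12.6 kb to the right, so these members point towards it. Olfr501-ps1, a polymorphic pseudogene on the plus strand that the rule leaves out, starts 4.44 kb from the same midpoint. Here 70% of the words in the widened interval were unique.

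**Figure D1:**
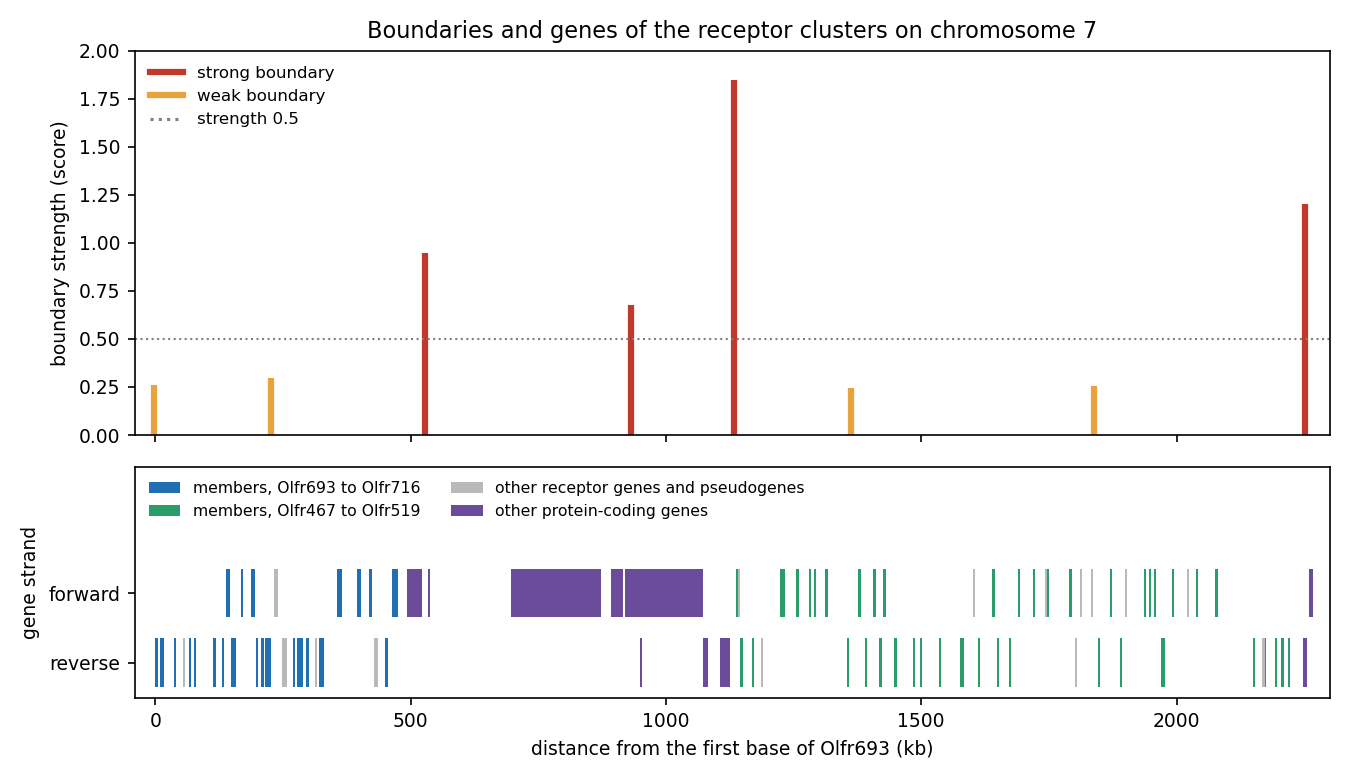
Boundary strength, the deposited score (upper panel, bars from 0), and gene models by strand (lower panel) along the chromosome, in kb from the first base of Olfr693. The 3 bars inside the clusters stay between 0.243 and 0.296, under the class limit of 0.5, while the strong bars stand beside and between the clusters, up to 1.85; gene models under 4 kb are drawn wider than they are.

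At the outer edges the boundaries were stronger, with 1 exception. The right edge of the second cluster is followed after 33.1 kb by a boundary of strength 1.20 at chr7:108925001-108930000, above 83.0% of the list. It overlaps an exon of Nlrp10, a member of the NOD-like receptor family, and the TSS of Nlrp10 and of Eif3f, a subunit of a translation initiation factor, both lie at it. The left edge of the second cluster has a boundary of strength 1.85 at chr7:107805001-107810000, above 95.4% of the list. Its midpoint lies 4.76 kb from Olfr467 on the plus strand and 6.29 kb from Ovch2 on the minus strand, so a receptor and a gene of another family are read away from it on either side.

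The first cluster differed between its sides. Its right edge, after Olfr716, is followed at 51.9 kb by a strong boundary of 0.945 at chr7:107200001-107205000. Nlrp14, another NOD-like receptor gene, lies in that gap, and Rbmxl2, a testis RNA-binding protein gene, starts 6.94 kb past the midpoint. The left edge has a weak boundary of 0.258 at chr7:106670001-106675000, 2.50 kb from the edge, and the Olfr693 model ends just beside it. In all, 3 of the 4 edges had a boundary within 50 kb, against 35 of 62 edges (56.5%) of the other receptor clusters. The median distance of those 62 edges was 39.9 kb and the median strength of their nearest boundary was 0.943. The difference was not tested.

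Left of the first cluster the next boundary lies 1010 kb away, at chr7:105660001-105665000, with a strength of 0.832. Of all 7347 intervals, 97% are shorter. This interval holds 8 protein-coding genes. Among them are Ilk, a protein of integrin adhesions, Tpp1, a lysosomal peptidase, Dchs1, a large cadherin, and Gvin1, an interferon-inducible GTPase. Only 42.5% of sampled words in this interval were unique. The part of that low share in its length was not tested.

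The members fell into 5 intervals. The first cluster filled 1 interval of 230 kb with 14 members (Olfr693 to Olfr707) and 1 of 300 kb with 9 (Olfr710 to Olfr716). The second filled intervals of 230 kb with 9 members (Olfr467 to Olfr478), 475 kb with 18 (Olfr479 to Olfr498) and 415 kb with 15 (Olfr502 to Olfr519). Over the whole list the median interval is 265 kb long and holds 2 protein-coding genes. The interval from Olfr479 to Olfr498 is longer than 80.6% of all intervals, and only 92 of 7347 hold as many protein-coding genes. The interval from Olfr693 to Olfr707 is shorter than the median, yet it is the densest of the 5, with 6.09 members per 100 kb. The others held 3 to 3.91 per 100 kb.

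With strong boundaries alone, the second cluster is a single block. All 42 of its members and no other protein-coding gene lie in 1 interval of 1120 kb between the boundaries beside Ovch2 and in Nlrp10. The first cluster then shares an interval of 1540 kb with Nlrp14 on its right and with the 8 genes on its left. That interval has 35 protein-coding genes in all, 3 of them receptor genes that the rule leaves out (Olfr1532-ps1, Olfr709-ps1 and Olfr715b). Among 4032 intervals between strong boundaries the median is 400 kb, and 87.4% and 92.4% are shorter than these.

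Genes were called at a boundary if their TSS fell no more than 10 kb outside its 5000 bp. This held for 4 of 65 members (6.15%), against 5.84% of the receptor genes outside the clusters (60 of 1028) and 13% of all protein-coding genes (2827 of 21755). The members' share thus lies near that of receptor genes elsewhere. The 4 are Olfr707 (ENSMUSG00000069390.5), inside the interval, Olfr478 (ENSMUSG00000094426.3), 1.01 kb from it, Olfr467 (ENSMUSG00000066242.3), 2.26 kb from it, and Olfr693 (ENSMUSG00000051680.3), 5.58 kb from it. Just outside the limit were Olfr502 at 10.1 kb and Olfr479 at 10.7 kb. These distances rest on GENCODE starts. The RefSeq start differs by 9.13 kb in Olfr707, 2.32 kb in Olfr467, 2.10 kb in Olfr693 and 0.022 kb in Olfr478. Of the 4, Olfr467 alone sits at a strong boundary. Each of them is the first or last member of its interval, as are Olfr502 and Olfr479, which their closeness to a boundary nearly fixes.

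Most members lay well inside their interval. The median distance from a member TSS to the nearest boundary midpoint was 73.0 kb, with quartiles of 42.5 and 117 kb. For receptor genes elsewhere the median was 122 kb (57.4 to 218 kb) and for protein-coding genes that are no receptors 59.3 kb (26.8 to 106 kb). The median interval around a member was 415 kb, against 590 kb and 275 kb. The nearest boundary of a member had a median strength of 0.258, that of receptor genes elsewhere 0.383 and that of other genes 0.696. The members are neighbours and share boundaries: all 65 together have only 7 nearest boundaries.

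By interval, the deepest members were Olfr699 at 109 kb, Olfr714 at 132 kb, Olfr473 at 107 kb, Olfr490 at 224 kb and Olfr512 at 201 kb. Olfr490 was the deepest of all 65. Olfr2, the mouse I7 receptor used in many studies of ligand binding, lay 104 kb from the boundary on its left. Olfr17, the receptor gene known as P2 from tracing of olfactory axons, lay 109 kb from the strong boundary on its right. Olfr6, the member between Olfr710 and Olfr711, lay 61.4 kb from the boundary in Olfr707. The class I pair Olfr503 and Olfr504 lay at 32 and 53.3 kb, nearer to a boundary than the median member. At the right end of the second cluster the distances fell from 102 kb at Olfr514 through 77.0 kb at Olfr516, 55.1 kb at Olfr517 and 42.5 kb at Olfr518 to 33.1 kb at Olfr519.

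**Figure D2:**
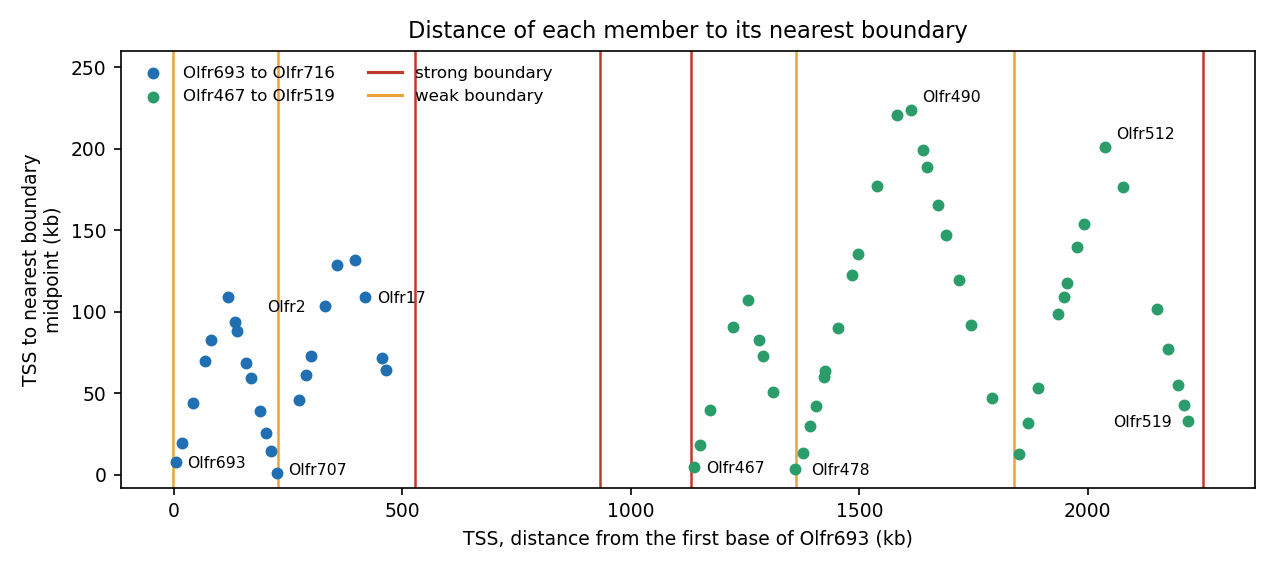
Distance from each member TSS to the midpoint of its nearest boundary (kb) against the position of the TSS, in kb from the first base of Olfr693; points are members by cluster and vertical lines are boundaries by class. Points form a peak in each interval by construction, low next to lines and highest at Olfr490 with 224 kb; the gap with no points is the stretch between the clusters.

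The intervals were compared with the receptor subfamilies, using the MOR family of each name. No family occurred in both clusters. The first cluster holds 4 families, led by MOR283 with 12 members, and the second 6, led by MOR204 with 31. The interval from Olfr693 to Olfr707 holds all 12 MOR283 genes and 2 of the 5 MOR260 genes, Olfr702 and Olfr707. Across the boundary in Olfr707 follow the 3 MOR103 genes (Olfr6, Olfr711 and Olfr2), the 3 MOR263 genes (Olfr713, Olfr714 and Olfr17) and the other 3 MOR260 genes (Olfr710, Olfr715 and Olfr716). So the weak boundary of the first cluster comes after the end of the MOR283 run, and MOR260 lies on both sides of it.

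In the second cluster MOR204 spans all 3 intervals. It makes up all 9 members from Olfr467 to Olfr478, 17 of 18 from Olfr479 to Olfr498 and 5 of 15 from Olfr502 to Olfr519. The exception in the middle interval is Olfr479 (MOR267-15), its first member, whose family partner Olfr509 (MOR267-14) lies across the boundary beside Olfr502. The last interval is the most mixed, with 6 families. It holds all 6 MOR268 genes, from Olfr512 to Olfr519, the single MOR195 gene Olfr513 and the class I pair. Of 7 families with several members, 4 lay in 1 interval only and 3 in several. Genes of a family mostly stand side by side, so that sharing an interval and being neighbours cannot be told apart here.

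**Figure D3:**
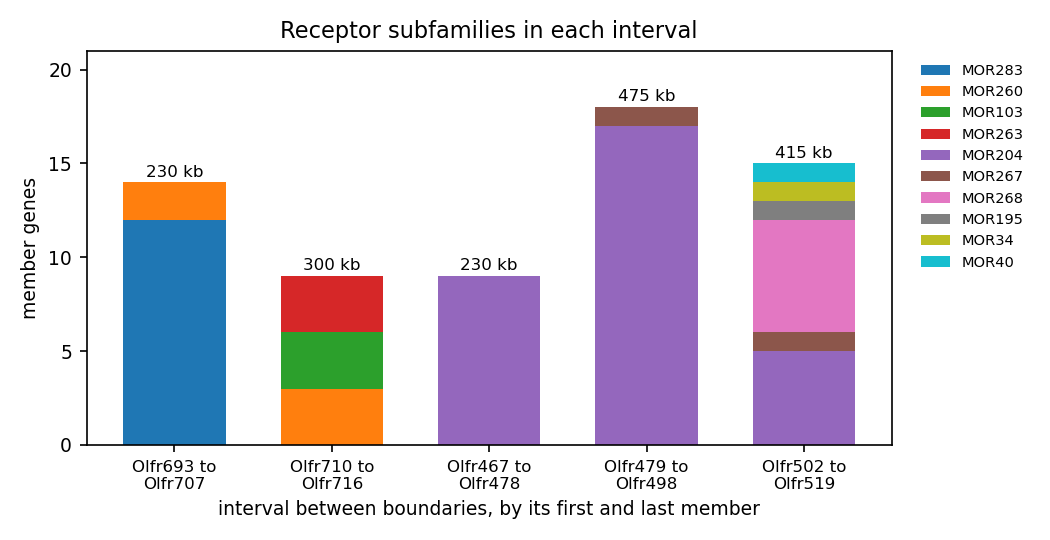
Number of members by MOR family (stacked bars from 0) in each interval that holds members, with the length of the interval in kb above the bar. MOR204 fills 9, 17 and 5 places in the intervals of the second cluster, MOR283 fills 12 places in 1 interval of the first, and no colour is shared between the clusters.

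Coding sequences were compared for every pair of members. Between the clusters, 966 pairs had a median identity of 57.1%, and no pair passed 64.7%. In the first cluster the median was 77.5% for 127 pairs in the same interval and 57.6% for 126 pairs in different ones. In the second it was 69.0% for 294 pairs and 62.2% for 567 pairs. Pairs share genes and are not independent, so these are descriptions. The most alike pairs were Olfr486 and Olfr487 at 96.2%, Olfr469 and Olfr470 at 95.9%, Olfr476 and Olfr477 at 95.2% and Olfr694 and Olfr704 at 94.0%. Each of the 15 pairs with at least 90% identity lay within 1 interval, as did 127 of all 253 pairs of the first cluster and 294 of 861 of the second. The distance between the genes of a pair was not taken into account, so sharing an interval and being near cannot be told apart. The highest identity across a boundary was 89.7% in the second cluster and 76.6% in the first, the latter between Olfr707 and Olfr716, both MOR260. The least alike pair was Olfr479 and Olfr503 at 50.3%.

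The most alike member lay in the same cluster for 65 of 65 members and in the same interval for 49, 19 of 23 in the first cluster and 30 of 42 in the second. Nearness along the chromosome was not taken into account in these counts either. The 4 of the first cluster whose most alike member lies across the boundary are Olfr707, Olfr710, Olfr715 and Olfr716, all MOR260. The protein-coding receptor genes that the rule leaves out, Olfr1532-ps1, Olfr709-ps1 and Olfr715b, were not compared. They lie in the interval from Olfr710 to Olfr716, so a closer relative among them cannot be seen here. At the weak boundaries of the second cluster, Olfr478 was most like Olfr502 (86.7%) and Olfr479 most like Olfr509 (78.7%), although other members stand between them. Against 1092 coding sequences of receptor genes named Olfr plus digits in the genome, 60 members had their most alike gene among the members. The 5 exceptions are Olfr503 and Olfr504, described above, Olfr711 (71.9% to Olfr1414), Olfr2 (66.5% to Olfr524) and Olfr513 (65.1% to Olfr1042).

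**Figure D4:**
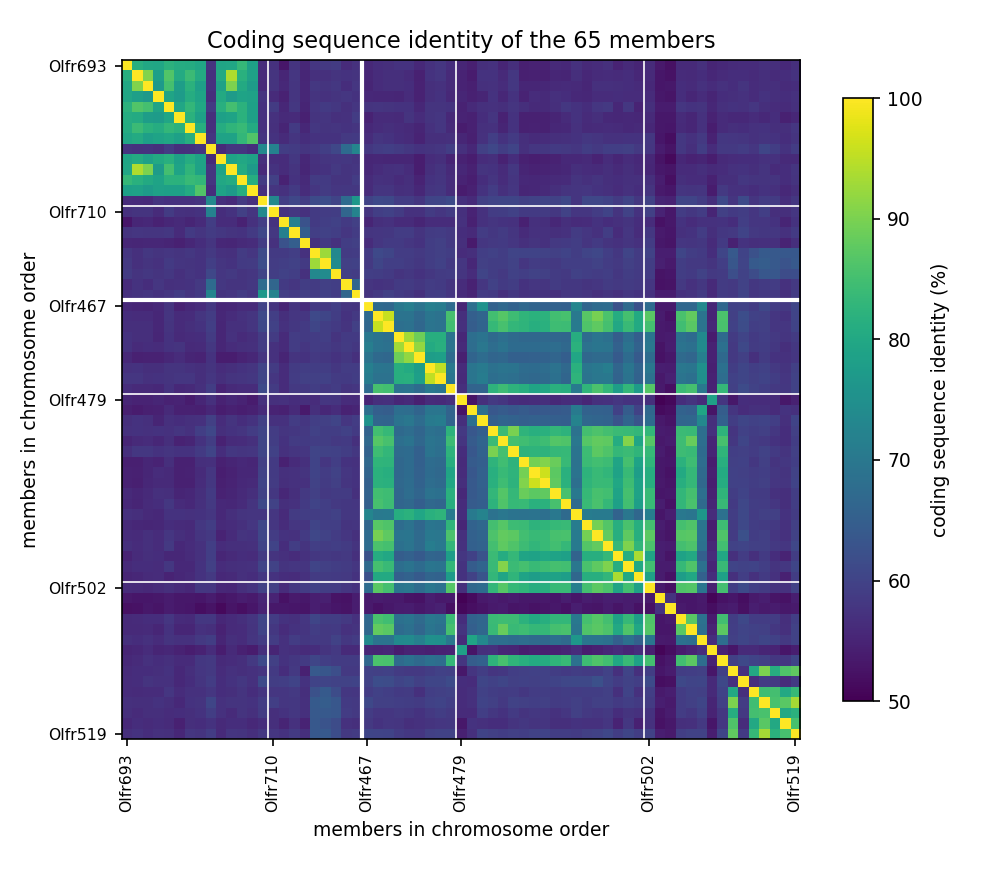
Identity of coding sequences (%, colour) for each pair of the 65 members, both axes in chromosome order; the thick white line parts the clusters and thin white lines are the boundaries inside them. Bright blocks are the MOR283 run at upper left, MOR204 over all intervals of the second cluster and MOR268 at lower right, and the dark stripes in the last interval include Olfr503 and Olfr504, the class I pair.

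Between the clusters lie 662 kb with 8 protein-coding genes and 3 boundaries, all strong, or 4.53 per Mb. The genes are Nlrp14, Rbmxl2, Syt9, a synaptotagmin of secretory vesicles, Olfml1, an olfactomedin-like secreted protein gene, Ppfibp2, a liprin, 5330417H12Rik, Cyb5r2, a cytochrome b5 reductase, and Ovch2. Of these, Rbmxl2, Ppfibp2 and Ovch2 have their TSS at a boundary, 3 of 8 against 4 of 65 members and 13% over all genes. The middle boundary, chr7:107605001-107610000, has a strength of 0.674 and overlaps an exon of Ppfibp2. It parts the gap into intervals of 405 and 200 kb, neither of which holds a member. The gap has a GC content of 42.7% and a soft-masked share of 28.9%, nearer to the chromosome than to the clusters.

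CTCF, a zinc finger protein known to hold many domain boundaries, was followed by its motif alone, as matches to a fixed pattern of 12 letters on either strand. The list has such a match at 23.9% of boundaries (1763 of 7367), in the interval widened by 10 kb. Of the 8 boundaries at and around the clusters 2 had one, both strong: those beside Ovch2 and in Nlrp10. None of the 3 inner boundaries did. The first cluster held 1 match (2.10 per Mb) and the second 3 (2.77 per Mb), against 5.66 per Mb over chromosome 7. The interval of 200 kb left of the second cluster held 5 and the interval of 160 kb right of it held 7. A match is a description of the reference sequence and says nothing of bound protein.

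The matches inside the clusters and the one at the right edge are printed with 30 bases on each side, on the strand of the motif, with the matched letters in capitals. They are shown because they are the few places of the clusters with this motif. Site 1 lies at chr7:106815935-106816006 (minus strand) in the Olfr701 model. Site 2 lies at chr7:107819605-107819676 (minus strand) in the widened interval of the boundary beside Ovch2, and site 3 at chr7:107841881-107841952 (minus strand). Site 4 lies at chr7:108814968-108815039 (plus strand), and site 5 at chr7:108934122-108934193 (minus strand) in the widened interval of the boundary in Nlrp10.
Site 1: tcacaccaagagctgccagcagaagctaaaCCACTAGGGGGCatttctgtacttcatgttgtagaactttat
Site 2: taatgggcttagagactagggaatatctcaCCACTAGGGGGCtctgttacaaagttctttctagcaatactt
Site 3: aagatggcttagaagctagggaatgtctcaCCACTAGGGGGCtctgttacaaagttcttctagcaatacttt
Site 4: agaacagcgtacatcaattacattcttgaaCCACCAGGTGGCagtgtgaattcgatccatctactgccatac
Site 5: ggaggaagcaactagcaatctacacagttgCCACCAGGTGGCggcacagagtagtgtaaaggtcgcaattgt

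Sites 2 and 3 are near copies: over 72 bases they differ by 8 edits, while the next closest pair of windows among the 11 matches from Olfr693 to the Nlrp10 boundary differs by 33. Site 2 lies 12.1 kb from the midpoint of the boundary beside Ovch2 and site 3 lies 34.4 kb from it. Site 2 lies past the 3′ end of the Olfr469 model and site 3 past that of Olfr470, and these genes are 95.9% identical in coding sequence. Of the pair, 1 site is at the boundary by the 10 kb rule and the other is not. Sites 2 and 3 are both on the minus strand, as are 4 of the 5 matches in the interval left of the second cluster.

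Among 33 receptor clusters in the genome, built from 5 or more receptor genes with gaps of at most 500 kb, the other 31 held 57 boundaries in 28.6 Mb, or 1.99 per Mb, close to the 1.93 per Mb of the members. Of those 57, 24 were strong, whereas none of the 3 of the members was. This count depends on which side of the end gene a boundary falls. The strongest inner boundary of Olfr433 to Olfr220 (2.78) lies 3.78 kb inside its right edge. That of Olfr1417 to Olfr1505 (2.84) is not the nearest boundary of an edge. The strong boundaries of 1.85 and 1.20 beside the second member cluster lie 4.76 and 33.1 kb outside its span and are not counted. The inner boundaries of the other clusters ran from 0.209 to 2.84 with a median of 0.382, and 21 of 57 were below 0.3, as are all 3 here and 21.8% of the list. In 15 of the 31 clusters at least 1 inner boundary was strong, 12 had no inner boundary and 4 had weak ones only.

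Relative to the density of their own chromosome, the clusters stand in the middle of their kind. The first held 0.718 of the number at that density and the second 0.631, ninth and eighth from the lowest of 15 clusters with at least 20 genes. The other 13 ran from 0 to 1.17, with a median of 0.63. Of these 13, Olfr1275 to Olfr1318, Olfr24 to Olfr18 and Olfr160 to Olfr986 also had weak inner boundaries only. The next cluster on chromosome 7, Olfr543 to Olfr692, which holds the class I receptors, had 8 inner boundaries, 2 of them strong, at a ratio of 0.945. Its strongest inner boundary (2.53) lies 5.92 kb inside its left edge. The numbers of boundaries per cluster are small, and no difference between clusters was tested.

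**Figure D5:**
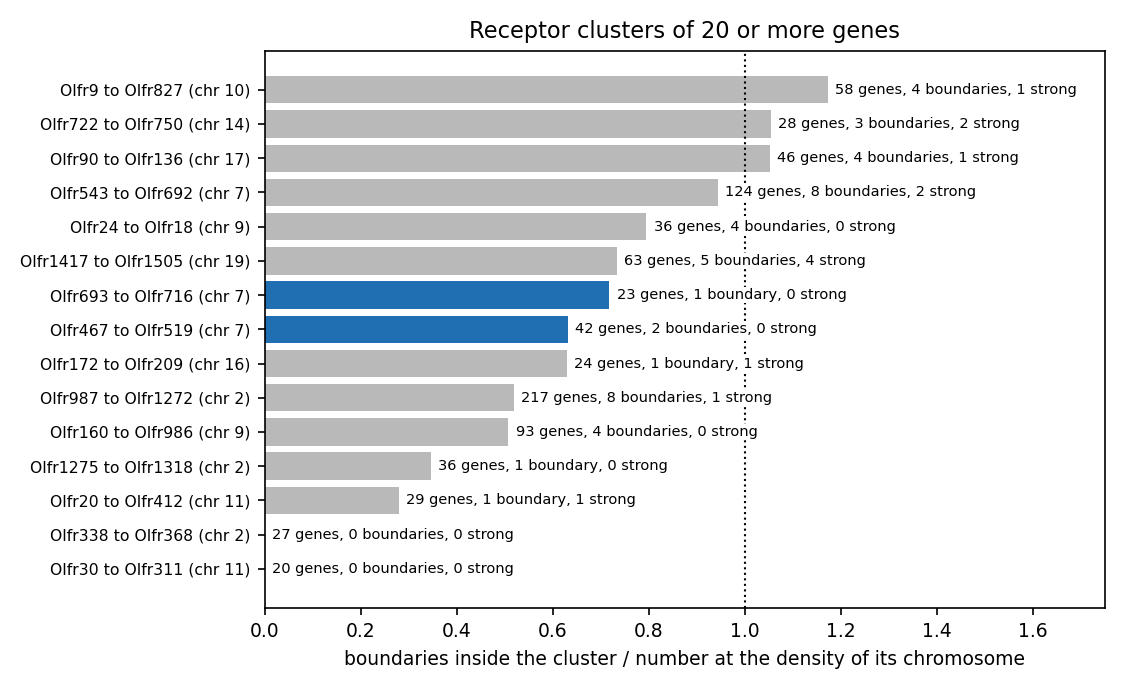
Number of boundaries inside each receptor cluster of 20 or more genes, over the number its length would hold at the density of its chromosome (bars from 0, dotted line at 1). The clusters described here, in blue, lie at 0.718 and 0.631 among 15 clusters that run from 0 to 1.17, and text gives genes, boundaries and strong boundaries.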

How the data were processed

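Per the series design text, the authors combined the contacts of both replicates on GRCm38 and called boundaries on the pooled matrix. The deposited list gives position, class and strength, a score; the sources used here do not give its scale, the caller, the aligner or filters. Depth is unknown, so no interval or floor was computed. Insulation, compartment and contact files were not used here.

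Boundaries were joined to GENCODE M21 genes and the GRCm38 sequence with Python 3.11.15 and pandas 2.3.3. A TSS is the 5′ end of a gene model. Distances run to boundary midpoints, and the 10 kb rule runs to the interval. The joins were checked on 900 planted positions, all recovered. Unique words of 32 bases were sampled every 250 bp. Members, lists and limits were chosen with earlier results of these data known. Named by a fixed rule were members at cluster ends and at or next to boundaries, Olfr2 and Olfr17, flanking and overlapping genes and the most and least alike pair. Other members, pairs and families named were chosen after values were seen. The class was read from MOR names among RefSeq synonyms in place of RefSeq symbols, and coding sequences were compared in place of proteins. With replicates pooled, no test was made. Alternatives were strong boundaries or the strongest 25% alone, other windows and spans, gene bodies, pseudogenes and, added after the data were seen, coding starts and cluster edges in the strongest 25%.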

Additional observations from a re-analysis of the deposited data

How the results depend on the processing

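No replicate could be left out, since the list pools both, and every value rests on 1 map of unknown depth. Of 28 alternatives, 11 stayed within a factor of 1.5 of the reported count, density, distance or length, and 17 moved. The 3 boundaries inside the clusters became 0 with strong boundaries only and 0 with the strongest 25% of the list, and 6 with spans widened by 50 kb, of which 2 were strong where none was inside the reported spans. Their density of 1.93 per Mb became 0, 0 and 3.41 per Mb in the same order. The 4 members with a TSS at a boundary became 1 with the boundary interval alone, 10 with 25 kb on each side and 1 with strong boundaries only, while gene bodies gave 6 and coding starts 5. The median distance to the nearest boundary, 73.0 kb, became 297.5 kb with strong boundaries and 407.1 kb with the strongest 25%, and the median interval, 415 kb, became 1120 kb under both. The largest number of members in 1 interval rose from 18 to 42 with strong boundaries. The 3 boundaries between the clusters became 1 in the strongest 25%, and the 8 protein-coding genes there are 15 genes of all types. Fewer boundaries enter each of the strength limits by construction. The edges with a boundary within 50 kb, 3 of 4, were 2 at 25 kb, 4 at 100 kb and 2 with strong boundaries or with the strongest 25%.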
